A study of Mus musculus with 2 samples.

Results

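The microRNAs miR-223, miR-142 and miR-150, which are made mainly by white blood cells, were followed in small RNA libraries of mouse liver. The 6 members were the rows named exactly mmu-miR-223-3p, mmu-miR-223-5p, mmu-miR-142a-3p, mmu-miR-142a-5p, mmu-miR-150-5p and mmu-miR-150-3p, out of 1915 names in the larger of 2 deposited tables, and the rule used names alone. Each table, called experiment 1 or experiment 2 here, holds 1 ethanol-fed and 1 pair-fed library. Both groups were female wild-type C57BL/6 mice of 8 to 10 weeks that first had the control Lieber-DeCarli liquid diet for 5 days. Ethanol-fed mice then had this diet with 5% (v/v) ethanol for 10 days and a gavage of 6 g/kg ethanol on day 16, whereas pair-fed mice had an isocaloric diet without ethanol and a gavage of isocaloric dextrin-maltose. Livers were taken 9 h after the gavage. The design statement of the series gives 16 days of ethanol in place of 10. The labels list 1 sample per condition and say neither how many mice stand behind a library nor whether the tables share mice, so a difference below is between libraries and no p-value was computed. Where 2 values follow each other, the pair-fed one comes first.

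A microRNA is cut from the stem of a hairpin RNA, whose left side gives the 5p arm and whose right side gives the 3p arm. The arm that is loaded into an Argonaute protein represses messenger RNAs that pair with its seed. miR-223, encoded on the X chromosome, is best known from neutrophils and monocytes, where it restrains granulocyte activation. miR-142 is present across the blood lineages, and miR-150 accumulates in mature B cells, T cells and natural killer cells, where it represses the transcription factor Myb. Beside hepatocytes, liver tissue holds resident macrophages (Kupffer cells), recruited neutrophils, lymphocytes and circulating blood. In such bulk tissue, fewer cells of a type and less RNA per cell cannot be told apart.

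RefSeq (GRCm38.p6) entries were matched for 5 of the 6 members. The mature sequences of the miR-223 and miR-142a arms are shown, since both arms of these hairpins were measured and their shares are compared later. The seed (bases 2 to 8, counted from the 5′ end) is in capitals.
mmu-miR-223-3p: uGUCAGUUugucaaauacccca
mmu-miR-223-5p: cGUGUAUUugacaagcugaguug
mmu-miR-142a-3p: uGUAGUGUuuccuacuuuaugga
mmu-miR-142a-5p: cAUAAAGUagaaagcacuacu

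The 4 seeds differ, and none is shared with any of the other 1678 mature names of the RefSeq table, so the table holds no seed family for these microRNAs. The mature RNAs have 22 bases (mmu-miR-223-3p), 23 bases (mmu-miR-223-5p and mmu-miR-142a-3p) and 21 bases (mmu-miR-142a-5p).

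The hairpins are shown with both mature arms in capitals, because the 5p and the 3p reads of 1 hairpin come from the same transcript.
Mir142: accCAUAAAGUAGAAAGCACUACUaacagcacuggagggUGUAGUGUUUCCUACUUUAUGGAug
Mir223: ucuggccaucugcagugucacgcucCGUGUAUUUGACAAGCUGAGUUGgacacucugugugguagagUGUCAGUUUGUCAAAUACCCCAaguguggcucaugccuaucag

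In the 64-base *Mir142* hairpin, the 5p arm takes bases 4 to 24 and the 3p arm bases 40 to 62, with 15 bases between them. In the 110-base *Mir223* hairpin, the arms take bases 26 to 48 and 68 to 89, with 19 bases between them. In GENCODE M21 (GRCm38), *Mir142* (ENSMUSG00000105196.1) lies at chr11:87756864-87756927 on the plus strand, in an intron of the long noncoding gene *Mir142hg*. *Mir223* (ENSMUSG00000076066.1) lies at chrX:96242817-96242926 on the plus strand, inside an exon of the noncoding gene F630028O10Rik of the same strand. *Mir150* (ENSMUSG00000065495.1) lies at chr7:45121757-45121821 on the plus strand and overlaps no other gene, with *Gm45552* lying 95 bases away. The deposited tables give names without coordinates.

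A separate microRNA, mmu-miR-142b, is annotated on the minus strand of the *Mir142* locus, and its sequence is shown because it lies opposite mmu-miR-142a-3p.
mmu-miR-142b: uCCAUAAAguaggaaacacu

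It shares a run of 10 bases with mmu-miR-142a-5p, and all 20 of its bases are complementary to mmu-miR-142a-3p. mmu-miR-142b was not listed in experiment 1 and was listed at 0 in both libraries of experiment 2, so no reads at or above that table's minimum were assigned to it.

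Experiment 1 lists whole reads for 484 microRNAs, with totals of 4170601 and 4311802 reads. Experiment 2 lists reads per 1000000 reads on microRNAs (RPM), with 0.92 RPM as the lowest value above 0. The steps between its low values, taken as 1 read, give totals of about 10811814 and 10819695 reads and mean that a microRNA listed at 0 can have had fewer than 10 reads. The main hepatocyte microRNA, mmu-miR-122-5p, was at 2971 and 2210 RPM in experiment 1 and at 182938 and 156660 RPM in experiment 2. In experiment 1 it lay far below mmu-miR-192-5p (388161 and 373090 RPM), and in experiment 2 above it (117318 and 109724 RPM). The makeup of the libraries thus differed widely between the tables, which were normalized separately, and each ratio of ethanol-fed to pair-fed level stays within its table. Intervals are for 95% confidence and cover counting error only, since PCR copies were not told apart and mice were not compared.

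Of the 6 members, 5 were listed in experiment 1 and all 6 in experiment 2, where mmu-miR-150-3p was listed at 0 in both libraries. The other 5 reached the minimum for a ratio, a total of 10 reads over both libraries of a table, and all 5 were lower in the ethanol-fed than in the pair-fed library of both experiments. Together they took 417 and 346 RPM in experiment 1, and 885 and 470 RPM in experiment 2. The summed ethanol-fed level was 0.828 times the pair-fed level in experiment 1 (log2 ratio -0.27, interval -0.37 to -0.17) and 0.531 times in experiment 2 (log2 ratio -0.91, interval -0.96 to -0.86).

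**Figure D1:**
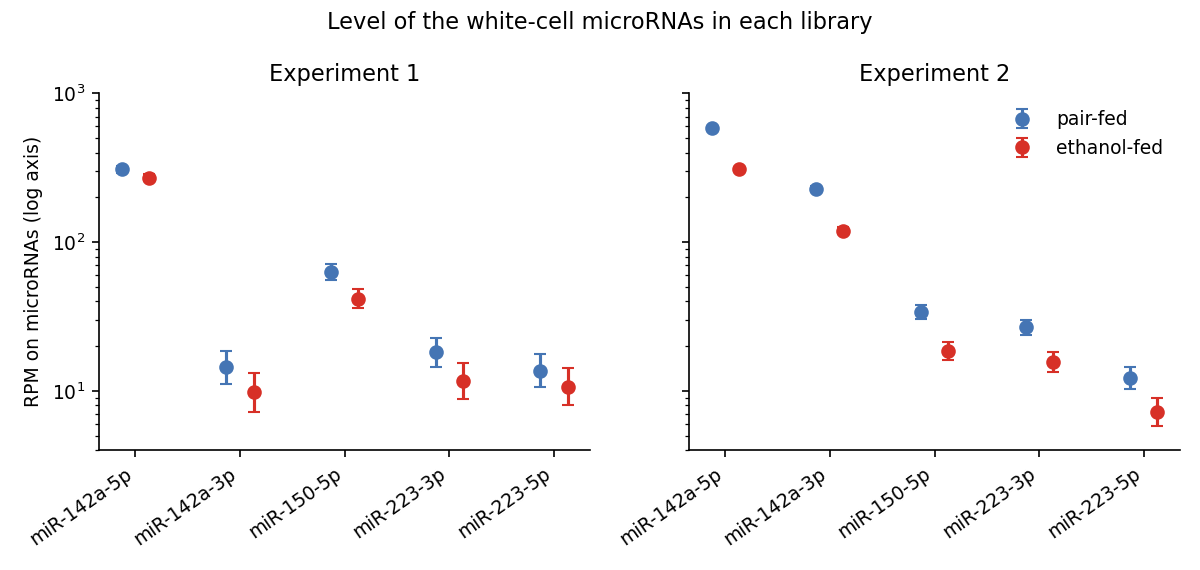
Level of each member in RPM (log axis) in the pair-fed (blue) and ethanol-fed (red) library of experiment 1 (left) and experiment 2 (right); bars are 95% Wilson intervals for counting error. In experiment 2 all 5 red points lie under the blue ones with separate intervals, whereas in experiment 1 the intervals are separate for mmu-miR-142a-5p and mmu-miR-150-5p and overlap for the other 3.

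mmu-miR-223-3p, the arm of the myeloid miR-223 hairpin that is usually taken as its guide strand, had 76 reads (18.2 RPM, interval 14.6 to 22.8) without ethanol and 50 reads (11.6 RPM, 8.80 to 15.3) with ethanol in experiment 1. In experiment 2 it stood at 26.7 RPM (23.8 to 30.0) and 15.6 RPM (13.4 to 18.2), or about 289 and 169 reads. The ethanol-fed library was the lower one both times, with overlapping intervals in experiment 1 and separate ones in experiment 2. The log2 ratio (ethanol-fed to pair-fed level, after adding 1 read to each library) was -0.64 (-1.20 to -0.12) in experiment 1 and -0.77 (-1.06 to -0.50) in experiment 2. The intervals of ratios, here and below, were taken from the counts without the added read. Of the 302 microRNAs tested in experiment 1, 64 had a ratio as low or lower (the member itself included, here and below), and of the 469 tested in experiment 2, 88 did.

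The opposite arm, mmu-miR-223-5p, had 57 reads (13.7 RPM, 10.5 to 17.7) and 46 reads (10.7 RPM, 8.0 to 14.2) in experiment 1. In experiment 2 its levels were 12.1 RPM (10.2 to 14.4) and 7.21 RPM (5.78 to 9.00). The groups could not be told apart by counting error in experiment 1 and were separate in experiment 2. Its log2 ratios were -0.35 (-0.95 to 0.23) and -0.74 (-1.17 to -0.33), with 106 of 302 and 90 of 469 microRNAs as low or lower. The 2 arms of miR-223 thus had overlapping ratio intervals in each experiment.

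mmu-miR-142a-5p, from the hairpin shared by the blood lineages, was the most abundant member in all 4 libraries. It had 1286 reads (308 RPM, 292 to 326) and 1172 reads (272 RPM, 257 to 288) in experiment 1, and 583 RPM (569 to 598) and 309 RPM (299 to 320) in experiment 2. The level was lower with ethanol in both tables, by little in experiment 1 and to 0.530 times the pair-fed level in experiment 2. Its log2 ratio was -0.18 (-0.30 to -0.07) in experiment 1 and -0.92 (-0.98 to -0.86) in experiment 2. These intervals do not overlap, so for this member the sizes in the experiments differed by more than counting error. As low or lower were 126 of 302 microRNAs in experiment 1, the most for any member there, and 76 of 469 in experiment 2.

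mmu-miR-142a-3p had 60 reads (14.4 RPM, 11.2 to 18.5) and 42 reads (9.74 RPM, 7.21 to 13.2) in experiment 1. In experiment 2 it was far more abundant, at 228 RPM (220 to 238) and 119 RPM (113 to 126). The intervals of the groups overlapped in experiment 1 and were well apart in experiment 2. The log2 ratios were -0.55 (-1.17 to 0.03) and -0.94 (-1.03 to -0.84), the latter the lowest of any member. In experiment 2 both miR-142a arms stood at close to the same ratio, and 75 of the 469 microRNAs were as low as mmu-miR-142a-3p or lower, as were 75 of 302 in experiment 1.

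mmu-miR-150-5p, the lymphocyte microRNA, had 262 reads (62.8 RPM, 55.7 to 70.9) and 180 reads (41.7 RPM, 36.1 to 48.3) in experiment 1. It had 33.9 RPM (30.6 to 37.5) and 18.5 RPM (16.1 to 21.2) in experiment 2. The libraries were separate beyond counting error in both tables, with the ethanol-fed one lower. The log2 ratios were -0.59 (-0.87 to -0.31) and -0.87 (-1.13 to -0.62), with 68 of 302 and 80 of 469 microRNAs as low or lower. For mmu-miR-150-3p, the opposite arm, a listing at 0 in experiment 2 means a level under 0.92 RPM in both libraries, and no ratio was computed.

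The order of the members' levels differed between the experiments. In the pair-fed library of experiment 1, mmu-miR-142a-5p was followed by mmu-miR-150-5p and then by mmu-miR-223-3p, mmu-miR-142a-3p and mmu-miR-223-5p, whose intervals overlapped. In that of experiment 2, mmu-miR-142a-5p was followed by mmu-miR-142a-3p, mmu-miR-150-5p, mmu-miR-223-3p and mmu-miR-223-5p, all with separate intervals. In the ethanol-fed library of experiment 1, mmu-miR-223-3p, mmu-miR-223-5p and mmu-miR-142a-3p again followed the same leading members with overlapping intervals. The ethanol-fed library of experiment 2 had the order of its pair-fed library, with overlapping intervals for mmu-miR-150-5p and mmu-miR-223-3p. By rank among all microRNAs of a library, mmu-miR-142a-5p was at place 60 and 63 in experiment 1 and at place 65 and 87 in experiment 2, whereas mmu-miR-223-5p was at place 148 and 162, then 238 and 269.

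The members' ratios were set beside those of all microRNAs tested in the same table. No member was 2-fold lower in the ethanol-fed library in either experiment (0 of 5 each time), and 12.9% of the 302 microRNAs tested in experiment 1 and 15.1% of the 469 tested in experiment 2 were (10.4% with zeros of that table set to its lowest listed value, 0.92 RPM). At 1.5-fold, 2 of 5 members (mmu-miR-223-3p and mmu-miR-150-5p) were lower in experiment 1, where 22.5% of all microRNAs were, and 5 of 5 were lower in experiment 2, where 21.5% were. mmu-miR-150-5p lay just inside that limit in experiment 1, at 0.666 times the pair-fed level, and mmu-miR-142a-3p just outside it, at 0.682 times. With a minimum of 100 reads, the shares of all microRNAs past 1.5-fold were 15.2% in experiment 1 and 16.1% in experiment 2, and the members counted were the same. The shares past 2-fold were then 5.70% of 158 microRNAs and 8.05% of 298, again with 0 of 5 members. All 5 members had a log2 ratio below 0 in each experiment, against 51.3% of microRNAs in experiment 1 and 49.7% in experiment 2. The median log2 ratio of the members was -0.55 in experiment 1 and -0.87 in experiment 2, and over all microRNAs tested it was -0.01 and 0.0026. The 5 members come from 3 hairpins and are not independent of one another.

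**Figure D2:**
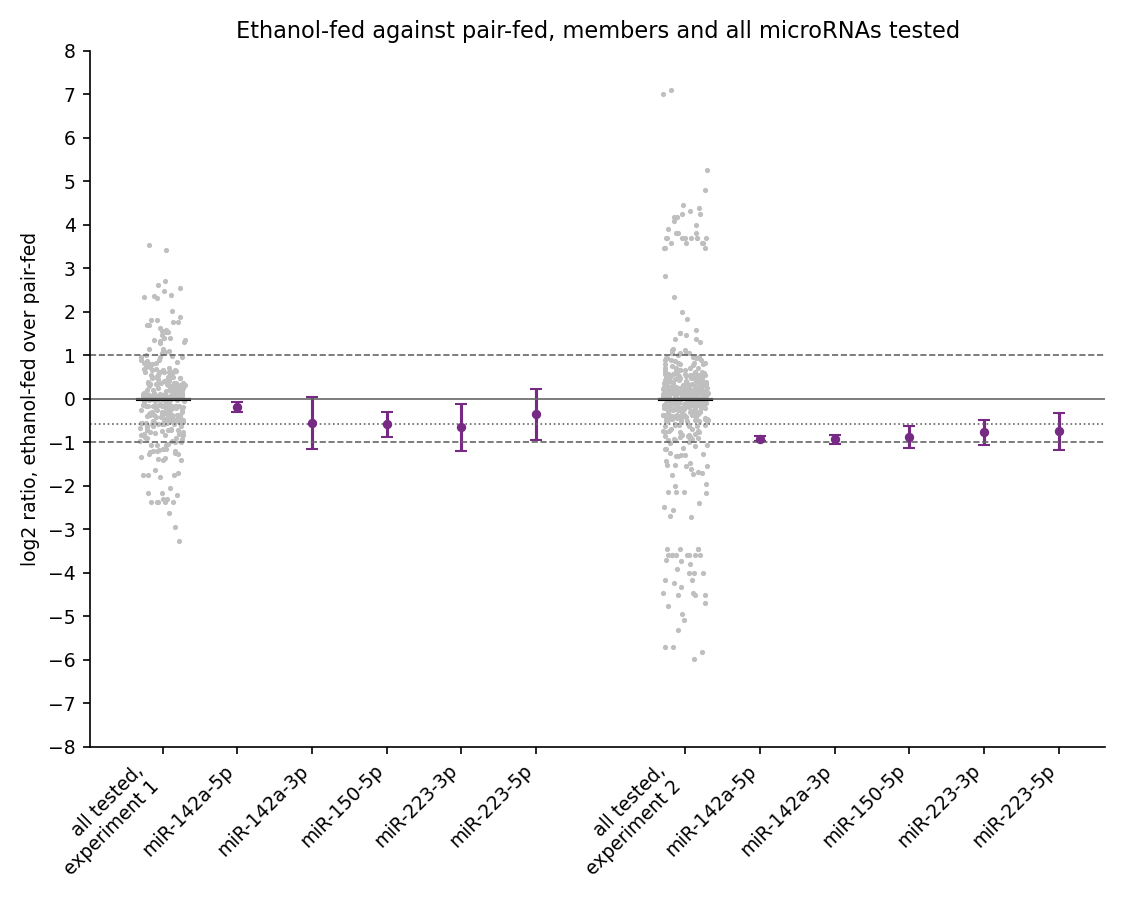
Log2 ratio, ethanol-fed to pair-fed (linear axis), for every microRNA tested (grey points, black bar at the median) and for each member (purple, with 95% intervals for counting error), experiment 1 on the left and experiment 2 on the right; dashed lines mark 2-fold and the dotted line 1.5-fold lower. All 5 members lie between 0 and -1 in both experiments, from -0.64 to -0.18 in the first and from -0.94 to -0.74 in the second, while the grey points spread well past 2-fold both ways.

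Experiment 1 and experiment 2 share 148 microRNAs that reach a total of 100 reads in each table, of which 36 (24.3%) were lower in the ethanol-fed library both times. All 5 members were among these 36. The microRNAs whose pair of log2 ratios lay closest to a member's were then found by the Euclidean distance between pairs of log2 ratios (4 libraries, 147 others for each member). For mmu-miR-223-3p the closest was mmu-miR-146a-5p at a distance of 0.087, with log2 ratios of -0.72 and -0.80. It was followed by the members mmu-miR-150-5p at 0.11 and mmu-miR-142a-3p at 0.19. The median distance over all 147 was 1.11. mmu-miR-146a-5p, which is induced by NF-κB and represses the signalling proteins TRAF6 and IRAK1, had 3385 and 2120 reads in experiment 1 and 1722 and 987 RPM in experiment 2.

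For mmu-miR-142a-3p the closest were mmu-miR-150-5p at 0.074, mmu-miR-342-3p at 0.12 and mmu-miR-19a-3p at 0.13. mmu-miR-342-3p, from an intron of the gene *Evl*, had log2 ratios of -0.63 and -1.03, and mmu-miR-19a-3p, of the miR-17-92 cluster, had -0.58 and -1.06. For mmu-miR-142a-5p the closest were mmu-miR-19b-3p of the same cluster at 0.071 (log2 ratios -0.17 and -0.99), mmu-miR-223-5p at 0.24 and mmu-miR-146b-5p at 0.28 (log2 ratios -0.36 and -0.69). For mmu-miR-150-5p they were mmu-miR-142a-3p at 0.074, mmu-miR-223-3p at 0.11 and mmu-miR-146a-5p at 0.15. mmu-miR-150-5p was thus among the closest to both mmu-miR-223-3p and mmu-miR-142a-3p and they to it, and the single closest microRNA of mmu-miR-223-3p and of mmu-miR-142a-5p lay outside the set. With 2 ratios for each microRNA these distances are a description.

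**Figure D3:**
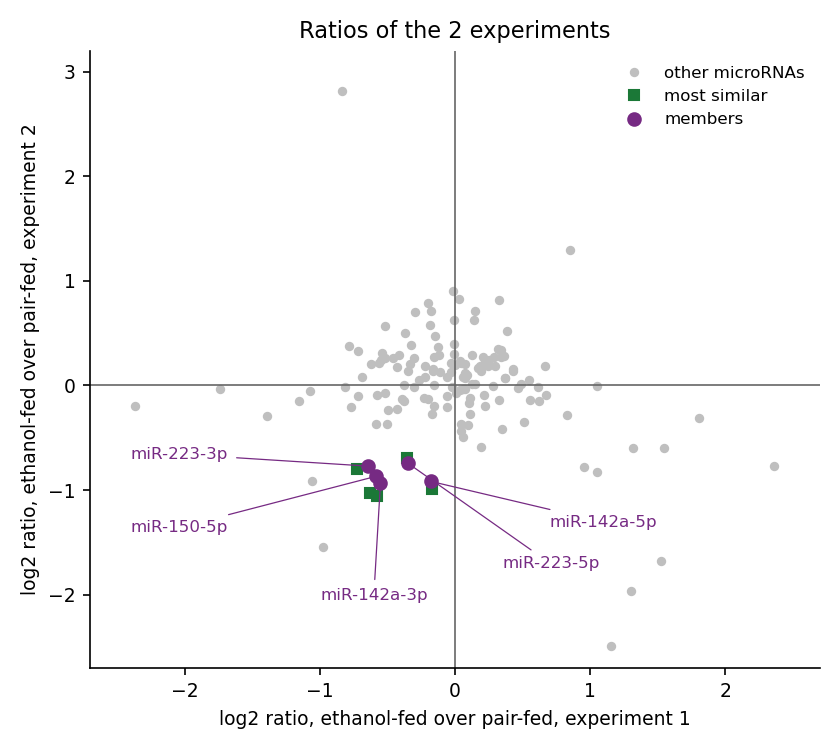
Log2 ratio, ethanol-fed to pair-fed, in experiment 1 (x axis) and experiment 2 (y axis) for the 148 microRNAs that reach 100 reads in each table; members are purple circles, the other microRNAs named as closest to a member are green squares, and grey points are the rest. The 5 members and the 5 green squares are among the 36 microRNAs with both log2 ratios below 0. The green squares were picked by their closeness to members in these same ratios.

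The makeup of the set was compared next, since shares within the set do not depend on the library total. In experiment 1, the miR-142a arms gave 77.3% (interval 75.3% to 79.2%) and 81.5% (79.4% to 83.4%) of the set's reads. miR-150 gave 15.0% (13.4% to 16.8%) and 12.1% (10.5% to 13.8%), and miR-223 gave 7.64% (6.48% to 8.98%) and 6.44% (5.30% to 7.81%). In experiment 2, miR-142a gave 91.8% (91.2% to 92.3%) and 91.2% (90.4% to 92.0%), miR-150 gave 3.83% (3.46% to 4.23%) and 3.93% (3.43% to 4.5%), and miR-223 gave 4.39% (4.0% to 4.82%) and 4.86% (4.30% to 5.49%). The share of miR-142a was therefore higher with ethanol in experiment 1, beyond counting error. The shares of miR-150 and miR-223 were both lower with ethanol there, with overlapping intervals. Overlapping intervals do not mean equal shares, and what miR-142a gained within the set the others lost together. In experiment 2 the intervals of each hairpin's share overlapped between the groups.

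Single members were also set against each other. In reads, mmu-miR-142a-5p had 16.9 and 23.4 times the reads of mmu-miR-223-3p in experiment 1 and 21.8 and 19.8 times in experiment 2. Against mmu-miR-150-5p it had 4.91 and 6.51 times in experiment 1 and 17.2 and 16.7 times in experiment 2. The lymphocyte microRNA mmu-miR-150-5p had 3.45 and 3.6 times the reads of the myeloid mmu-miR-223-3p in experiment 1, and 1.27 and 1.18 times in experiment 2. This ratio of a lymphocyte to a myeloid microRNA was closer between the groups of a table than between the tables.

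The share of the 3p arm within a hairpin does not depend on the library total either. For miR-142a, the 3p arm took 4.46% (exact interval 3.42% to 5.70%) and 3.46% (2.50% to 4.65%) of the reads on both arms in experiment 1. In experiment 2 it took 28.1% (27.2% to 29.1%) and 27.9% (26.6% to 29.2%). Diet groups overlapped within each table, while the tables were far apart, with 21.4 and 27.9 reads of the 5p arm per read of the 3p arm in experiment 1 against 2.55 and 2.59 in experiment 2. For miR-223, the 3p arm took 57.1% (48.3% to 65.7%) and 52.1% (41.6% to 62.4%) in experiment 1 and 68.8% (64.1% to 73.2%) and 68.4% (62.2% to 74.2%) in experiment 2, so the 3p arm was the larger in each library, within counting error of an even split in experiment 1. For miR-150, the 3p arm was listed at 0 in experiment 2, and at the lowest listed value it would have taken 2.65% and 4.74%.

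**Figure D4:**
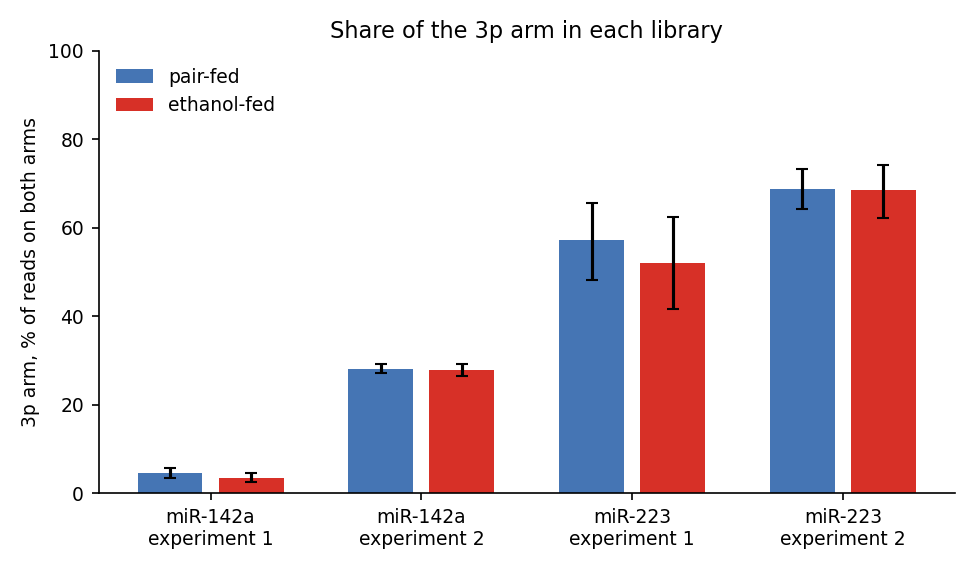
Share of the 3p arm among the reads on both arms of miR-142a and miR-223 (y axis, %), in the pair-fed (blue) and ethanol-fed (red) library of each experiment; error bars are exact 95% binomial intervals. Blue and red bars of a pair overlap in their intervals, and the miR-142a bars stand near 4% in experiment 1 and near 28% in experiment 2.

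The shift of miR-142a was placed among the 79 hairpins whose arms together had 50 reads or more in each library. From the pair-fed library of experiment 1 to that of experiment 2, the 3p share of miR-142a was 23.7 percentage points higher. Of the 79 hairpins, 12 shifted by as much or more in either direction (the hairpin itself included, here and below). For miR-223 the difference was 11.7 points, with 21 of 79 as large, and the median over the hairpins was 3.2 points in absolute value. Between the diet groups, the 3p share of miR-142a differed by -0.998 points in experiment 1 and -0.266 points in experiment 2, and that of miR-223 by -5.06 and -0.388 points, against median absolute differences of 0.811 and 0.284 points. For both hairpins the arm share differed more between the tables than between the diets, although the exact intervals of miR-223 in the pair-fed libraries of the tables overlapped.

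The levels themselves also differed between the tables, which were normalized separately. In the pair-fed libraries, mmu-miR-142a-3p was 15.9 times as high in experiment 2 as in experiment 1, mmu-miR-142a-5p 1.89 times, mmu-miR-223-3p 1.47 times, mmu-miR-223-5p 0.887 times and mmu-miR-150-5p 0.539 times. The median over the 283 microRNAs tested in both was 2.14 times. In the ethanol-fed libraries the values ran from 12.3 times for mmu-miR-142a-3p to 0.443 times for mmu-miR-150-5p, with a median of 1.73 over the same microRNAs. Among the 283 microRNAs, 41 had a larger rise in level from experiment 1 to experiment 2 than mmu-miR-142a-3p in the pair-fed libraries, and 46 in the ethanol-fed libraries.

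Lists of microRNAs of other cell types were set beside the members. Of 10 other white-cell microRNAs (both arms of miR-155, miR-146a, miR-342, miR-511 and miR-147), 5 were tested in experiment 1, with 3 lower and 2 higher, and 6 in experiment 2, all lower. Their median log2 ratio was -0.63 in experiment 1 and -0.56 in experiment 2 (-0.35 with the 1 member listed at 0 there, mmu-miR-342-5p, set to 0.92 RPM), and their summed level went from 892 to 547 RPM (0.613 times) in experiment 1 and from 1809 to 1042 RPM (0.576 times) in experiment 2. mmu-miR-146a-5p made up most of these sums. Both arms of miR-147, mmu-miR-155-3p and mmu-miR-146a-3p were listed at 0 in both libraries of experiment 2.

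The 7 microRNAs listed for hepatocytes, the main cell of the liver (arms of miR-122, miR-192, miR-194 and miR-802), had a median log2 ratio of -0.06 in experiment 1 and -0.09 in experiment 2. Their sum in the ethanol-fed library was 0.960 and 0.900 times that of the pair-fed library, with 4 lower and 3 higher each time. mmu-miR-192-5p made up most of the sum in experiment 1. Both arms of miR-122 were among the lower ones each time. The log2 ratios in experiments 1 and 2 were -0.43 and -0.22 for mmu-miR-122-5p, and -0.58 and -0.09 for mmu-miR-122-3p. The 2 endothelial microRNAs, the arms of miR-126a, were both higher each time (1.33 and 1.18 times). Of the mesenchymal arms of miR-143, miR-145a, miR-199a and miR-214, 3 were lower and 4 higher in experiment 1, and 3 were lower and 5 higher in experiment 2, with sums of 0.995 and 1.26 times.

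The red cell list (miR-451a and the arms of miR-144 and miR-486a), which marks red cells and their precursors, had opposite directions in the 2 experiments. In experiment 1 all 5 were higher in the ethanol-fed library, 4 of them at least 2-fold, and their sum went from 11561 to 33922 RPM (2.93 times), mostly from mmu-miR-486a-5p. In experiment 2, 4 of 5 were lower and 1 was higher, and the sum went from 1829 to 1155 RPM (0.631 times). The members were lower in both experiments, so in experiment 1 they were lower while the red cell list was higher, and in experiment 2 both were lower. The part of blood content in the members' ratios was not tested.

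The pancreas list (mmu-miR-217-5p, mmu-miR-216a-5p, mmu-miR-216b-5p and mmu-miR-375-3p), microRNAs known from exocrine cells and islets, differed most between the libraries of experiment 2. In experiment 2 all 4 were at least 2-fold higher in the ethanol-fed library, from a sum of 5.92 to 113 RPM, with mmu-miR-216a-5p and mmu-miR-216b-5p listed at 0 in the pair-fed library. In experiment 1, only mmu-miR-375-3p was tested, with 355 and 205 reads. The totals were also taken without the red cell and pancreas lists and both arms of miR-486b. The median log2 ratio of the members was then -0.49 in experiment 1 and -0.87 in experiment 2. Each member was below 0 in both experiments under every scaling tried, and the closest to 0 was mmu-miR-142a-5p in experiment 1 at -0.08 with upper-quartile scaling.

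**Figure D5:**
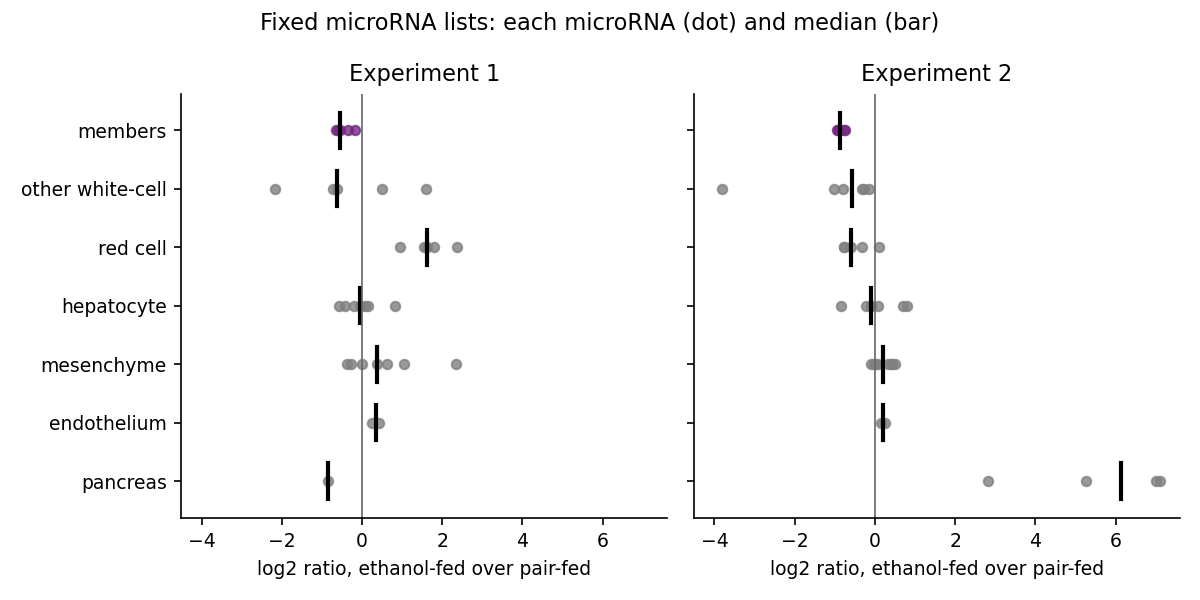
Log2 ratio, ethanol-fed to pair-fed (x axis), of each tested microRNA (dot) in 7 lists, with the list's median (black bar), in experiment 1 (left) and experiment 2 (right). Members have medians of -0.55 and -0.87, the red cell list changes side from 1.63 to -0.60, and all 4 pancreas dots of experiment 2 lie above 1. Dots of microRNAs listed at 0 in a library (1 other white-cell and 2 pancreas microRNAs of experiment 2) were placed with 0 reads plus the added read and have no fixed size.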

How the data were processed

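Small RNAs of liver were extracted with TRIzol, size-selected on a gel, amplified by RT-PCR and sequenced on an Illumina instrument, per the paper's methods, while the labels name a TruSeq RNA kit. In experiment 1 the values are counts of reads per mature microRNA, deposited without normalization. The values of experiment 2 are RPM as deposited by the authors, with reads on microRNAs as the denominator, listing nothing above 0 under 0.92 RPM. The submitters' processing notes name the build mm8. Which aligner, annotation and filters were used is not given in the sources used here. The second table also holds the authors' log2 fold change and P-value for 1 library against 1, which were not used.

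Columns were assigned to the diets by their names (Con and ALD, pair-72 and Ef-73), and 0 columns were left without a group. The count and RPM tables were analysed separately, with no test, since each holds 1 library per group. Counts were scaled to the reads on microRNAs, 1 read was added to each library for log2 ratios, and microRNAs that reached 10 reads over both libraries of a table were tested. In experiment 2, reads were estimated from the step between low values, of which 97.0% (pair-fed) and 96.6% (ethanol-fed) of those under 60 RPM were whole multiples within 0.006 RPM. Intervals are Wilson intervals for levels and shares of the set, and exact Clopper-Pearson intervals for arm shares and ratios, at 95%. Those of the ratios were computed without the added read. The precision follows the depth, which was lower in experiment 1.

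The microRNAs named were the members, those of the lists, the 3 closest to each of 4 members, mmu-miR-142b of the *Mir142* locus, and miR-486b. Any sharing a seed with a member were to be named too. There were none for the miR-223 and miR-142a arms, and the seeds of the miR-150 arms were not compared. The members were picked by name, and both members and lists were chosen with earlier results of these data known. Scalings, pseudocounts of 0.1 and 5 reads, minimums of reads, fold limits and the handling of zeros were varied. Leaving out the red cell and pancreas lists with both arms of miR-486b was an alternative added with the values in view. The ratios and intervals were tested on simulated data. The tools were scipy 1.17.1, pandas 2.3.3 and numpy 2.4.6 under Python 3.11.15, with figures by matplotlib 3.10.9.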

Additional observations from a re-analysis of the deposited data

How the results depend on the processing

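Other scalings, pseudocounts and the handling of zeros gave 70 values of the single members' log2 ratios, none of which changed sign. The handling of zeros could not move these ratios, since no member with a ratio was listed at 0. Of these, 69 stayed within the counting interval of the reported value, and 1, mmu-miR-142a-5p in experiment 2 with upper-quartile scaling, moved to -0.84. The ratios ranged from -0.68 to -0.08 in experiment 1 and from -0.95 to -0.67 in experiment 2, while the median of all microRNAs tested lay between -0.05 and 0.08 (experiment 1) and between -0.01 and 0.08 (experiment 2). The count of members 2-fold lower, 0 of 5 in both experiments, became 2 in experiment 1 and 5 in experiment 2 when the limit was set at 1.5-fold, which is the alternative's own construction, and was 0 under the other settings. The 3p share of miR-150 in experiment 2, 0 as listed, became 2.65% (pair-fed) and 4.74% (ethanol-fed) with zeros at the lowest listed value.

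Each table holds 1 library per diet, so none was left out. Within a table no paired analysis was possible. By the labels, which give 1 sample per diet, the groups share fewer than 2 replicate numbers. A fit across the separately normalized tables, paired by experiment, was not run. Depth limits experiment 1 most, where mmu-miR-142a-3p had 60 and 42 reads and mmu-miR-223-5p 57 and 46, and their ratio intervals include 0. The spread between mice is unknown, so none of the differences has a replicate check within its table, and whether the tables share mice is not given.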

Other observations

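Among the other white-cell microRNAs, those of miR-511, which lies in an intron of the macrophage mannose receptor gene *Mrc1*, were higher in the ethanol-fed library of experiment 1, unlike the members. mmu-miR-511-3p had 10 and 15 reads (log2 ratio 0.49) and mmu-miR-511-5p 9 and 30 reads (log2 ratio 1.58), pair-fed first. No interval was computed for either arm at these low counts, and the contrast rests mainly on mmu-miR-511-5p. In experiment 2 both arms were slightly lower, at 14.1 and 11.6 RPM (3p, log2 ratio -0.27) and 9.34 and 8.50 RPM (5p, log2 ratio -0.13). mmu-miR-155-5p, which is induced in activated macrophages and lymphocytes, had 0 and 4 reads in experiment 1 and 13.7 and 10.9 RPM (log2 ratio -0.33) in experiment 2. mmu-miR-342-5p, the opposite arm of mmu-miR-342-3p, had 51 and 11 reads in experiment 1 (log2 ratio -2.16), and in experiment 2 it was at 1.20 RPM in the pair-fed library and listed at 0 in the ethanol-fed library.

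The shift in arm use of miR-142a between the tables was not the largest one among the cell type lists. The 3p arm of miR-126a, the endothelial hairpin, took 7.63% and 6.82% of the reads on both arms in experiment 1 and 94.5% and 94.7% in experiment 2, pair-fed first each time. As for miR-142a, the libraries of a table were close to each other and the tables were far apart.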
